A study of Caenorhabditis elegans with 12 samples.

Results

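Of the 10457 H3K9me2 peaks listed for the *wdr-5* experiment, 4625 lay more than 1000 bp from every peak in the list of the *jhdm-1* experiment, a share of 44.2%. These peaks were selected on that distance alone, measured from edge to edge on the same chromosome, and are called *wdr-5* experiment-only peaks here. The other 5832 peaks of the same list, against which they are set, overlapped a *jhdm-1* experiment peak in 4284 cases and came within 1000 bp of one without an overlap in 1548 cases. The *jhdm-1* experiment list held 5883 peaks. The number of *wdr-5* experiment-only peaks follows from the rule that chose them and carries no test.

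Dimethylation of lysine 9 on histone H3 (H3K9me2) is a mark of repressed chromatin. In *C. elegans* it is laid down largely by the methyltransferase MET-2 and gathers on the arms of the autosomes, which are rich in repeats, more than in their centres. WDR-5 is a subunit of COMPASS, the complex that methylates lysine 4 of histone H3, a mark of active genes. JHDM-1 is a putative H3K9 demethylase, related to Epe1 of *S. pombe*.

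Chromatin immunoprecipitation followed by sequencing (ChIP-seq) was performed on whole animals of mixed stages, grown on OP50 bacteria, with 1 antibody against H3K9me2. The *wdr-5* experiment held homozygous *wdr-5* (*ok1417*) mutants and N2 wild type, each as early-, mid- and late-gen populations, which made 6 groups of 3 replicates by the study's methods. The *jhdm-1* experiment held *jhdm-1* (*ok2364*) mutants and N2 wild type as early- and mid-gen populations, 4 groups of 2 replicates. Early-, mid- and late-gen name successive spans of generations over which a population was followed, and each mutant genotype is represented by 1 allele. By the labels, 1 wild-type library in each of the early- and mid-gen groups served both experiments. Each list is the union of peaks seen in at least 2 replicates of any 1 genotype and generation, so a *wdr-5* experiment-only peak may come from wild type as well as from *wdr-5* mutants, and from any generation. The experiments also differed in the number of replicates and generations and in the mix of sequencing platforms among replicates. In the *jhdm-1* experiment a peak had to be found in both replicates of a group, whereas 2 of 3 sufficed in the *wdr-5* experiment. Genotype, generation, replicate number and platform cannot be told apart as sources of the difference between the lists.

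The lists give positions and no signal, score or depth, so the level of H3K9me2 at any peak is unknown from them. No comparison with a replicate error could be made. The intervals below are 95% intervals for counting error alone, neighbouring peaks share libraries and are not replicates, and the differences between *wdr-5* experiment-only peaks and other peaks were not tested.

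Most *wdr-5* experiment-only peaks lay well beyond the limit. Their distance to the nearest *jhdm-1* experiment peak had a median of 4173 bp and quartiles of 2141 and 8628 bp. In all, 1996 of them (43.2%) were farther than 5 kb, 998 (21.6%) farther than 10 kb, 144 (3.11%) farther than 50 kb and 30 farther than 100 kb. At the limit itself the list did not thin out, with 131 *wdr-5* experiment-only peaks up to 100 bp past it and 130 other peaks up to 100 bp short of it. The *wdr-5* experiment-only peaks nearest to it were IV:5687512-5687663 and III:11514052-11514647, both at 1001 bp, and the nearest other peaks were III:514675-515046, IV:966847-967782 and III:1884569-1885283, all at 1000 bp. Coordinates are on WS220/ce10, counted from 1.

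*wdr-5* experiment-only peaks were shorter than the other peaks. Their median length was 448 bp (95% interval 435 to 459) with quartiles of 272 and 744 bp, against 554 bp (534 to 571) with quartiles of 297 and 1041 bp for the other peaks. The mean was 617 ± 573 bp (SD, n = 4625) for *wdr-5* experiment-only peaks and 905 ± 1194 bp (SD, n = 5832) for other peaks, so the spread within each class was wider than the difference between them. Of the *wdr-5* experiment-only peaks, 61.1% (59.7 to 62.5%) were shorter than the median of the other peaks. They made up 44.2% of the peaks but covered 2.85 Mb, 35.1% of the length of the list, against 5.28 Mb for the other peaks.

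The difference lay mainly among long peaks. Peaks of at least 1 kb made up 15.0% of *wdr-5* experiment-only peaks (694) and 26.01% of other peaks (1517). Peaks of at least 2 kb made up 2.94% (136) of *wdr-5* experiment-only and 9.21% (537) of other peaks, and peaks of at least 5 kb 0.195% (9) and 1.53% (89). Under 200 bp the classes were close, with 10.9% of *wdr-5* experiment-only peaks (505) and 9.09% of other peaks (530). Under 500 bp they stood farther apart, with 56.0% (2590) and 46.1% (2689). When the whole list was divided into 10 length classes of nearly equal number, the share of *wdr-5* experiment-only peaks stayed between 46.7 and 51.4% in the shorter 6 classes. It was lower with each further class, down to 25.5% among the longest peaks, which ran from 1567 to 18987 bp.

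**Figure D1:**
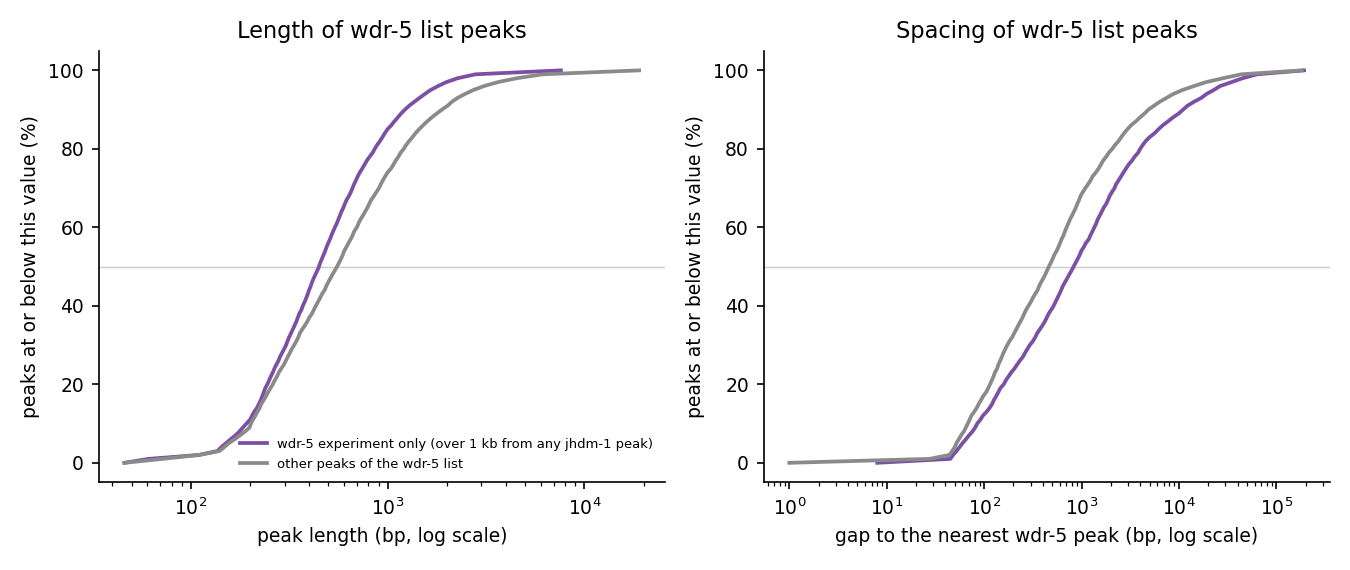
Cumulative share of peaks (%) by peak length (left) and by the gap to the nearest other peak of the *wdr-5* experiment list (right), both in bp on log axes, for *wdr-5* experiment-only peaks (purple, n = 4625) and other peaks (grey, n = 5832). The purple curve crosses 50% at 448 bp of length and 830 bp of gap, against 554 bp and 462 bp for the grey curve.

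Length enters the rule in part, because a longer peak reaches closer to its surroundings. When the distance was taken from the midpoint of each *wdr-5* experiment peak instead, 5126 peaks lay past the limit, their median length was 478 bp against 519 bp for the remainder, and 54.4% of them were shorter than that second median. The direction held and the difference narrowed. The kind of other peak also mattered. Those that overlapped a *jhdm-1* experiment peak had a median length of 592 bp, whereas those within the limit but without an overlap had a median of 483 bp (460 to 501), closer to the 448 bp of *wdr-5* experiment-only peaks.

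Among *wdr-5* experiment-only peaks, the more distant were shorter. The median length was 479.5 bp (445 to 505) at over 1 to 2 kb from a *jhdm-1* experiment peak and 489 bp (464 to 512) at 2 to 5 kb. It was 445.5 bp at 5 to 10 kb, 418.5 bp at 10 to 20 kb, 363 bp (337 to 393) at 20 to 50 kb and 288 bp (250 to 344) beyond 50 kb. A single run of very short peaks on Chromosome III, described further on, gave 18 of the 324 peaks at 20 to 50 kb and 14 of the 144 beyond 50 kb. Without it the medians of these classes were 375.5 bp (347 to 410) and 324 bp (275 to 367). Peaks of at least 1 kb made up 16.9% of the nearest of these distance classes and 5.56% of the farthest. The classes also differed in where they lay, with 98.1% of the nearest and 31.2% of the farthest in the outer parts of the chromosomes, where a left, a middle and a right part were each 1 of 3 equal stretches. The role of chromosome position in the decline of length was not tested, although median lengths in the middle parts were lower than in the outer parts in both classes, at 345 against 459 bp for *wdr-5* experiment-only peaks and 433.5 against 566 bp for other peaks.

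**Figure D2:**
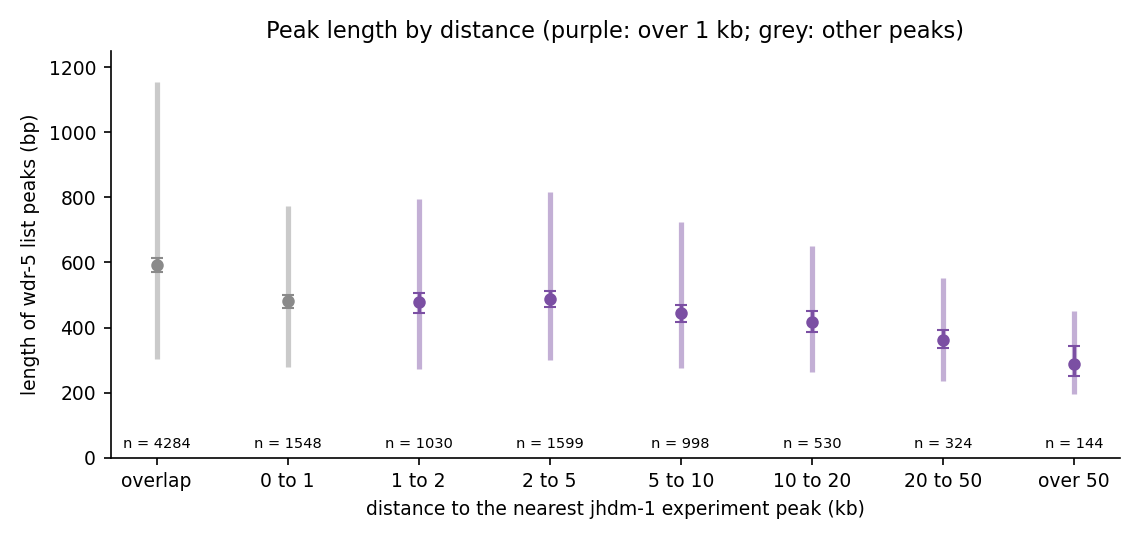
Length of *wdr-5* experiment list peaks (bp) by distance to the nearest *jhdm-1* experiment peak (kb), with *wdr-5* experiment-only peaks in purple and other peaks in grey. Points are medians with 95% intervals from order statistics, and thick bars span the quartiles. Past 5 kb the medians step down from 445.5 bp to 288 bp beyond 50 kb.

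The shorter length recurred across the genome. The median of *wdr-5* experiment-only peaks was the lower on 6 of 6 chromosomes, from 506 against 645 bp on Chromosome III to 351 against 424.5 bp on X. Among the 18 chromosome parts it was the lower in 17. The exception was the middle of V, with 377 bp for *wdr-5* experiment-only and 374.5 bp for other peaks.

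At the limit of 1000 bp the chromosomes contributed similar shares. *wdr-5* experiment-only peaks made up 41.3% of the peaks on Chromosome I (942 of 2279), 44.6% on II (673 of 1509), 46.4% on III (923 of 1988), 42.8% on IV (744 of 1739), 45.9% on V (1111 of 2418) and 44.3% on X (232 of 524). The range of these 6 shares, 41.3 to 46.4%, lay around the 44.2% of the whole list. Chromosome X carried few peaks of either class, 5.02% of *wdr-5* experiment-only and 5.01% of other peaks. The standing of X turned with the limit. When every peak without an overlap was counted, the share was 52.7% on X and 59.0% in the whole list. Past 5000 bp it was 32.3% on X and 19.1% in the whole list.

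Shares varied more within chromosomes. On X, *wdr-5* experiment-only peaks made up 35.4% of the peaks in the left part (96 of 271, 95% Wilson interval 29.97 to 41.3%), 58.7% in the middle part (37 of 63, 46.4 to 70.0%) and 52.1% in the right part (99 of 190, 45.0 to 59.1%). The interval of the left part of X lay below the 44.2% of the whole list, and those of the middle and right parts above it. These intervals take each peak as independent, although adjacent peaks were often of the same class. No part was tested against the list. On I the share was 43.0% on the left, 56.6% (47.7 to 65.0%) in the middle and 37.4% (34.4 to 40.5%) on the right. On V it was 51.3% (47.1 to 55.5%) on the left, 39.7% in the middle and 45.0% on the right. The parts of II, by contrast, lay between 44.1 and 44.9%. *wdr-5* experiment-only peaks outnumbered the other peaks in 5 of 18 parts. The middle of III was among them, at 77 against 65. Without a run of 35 short peaks there, described further on, the numbers were 42 against 65.

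**Figure D3:**
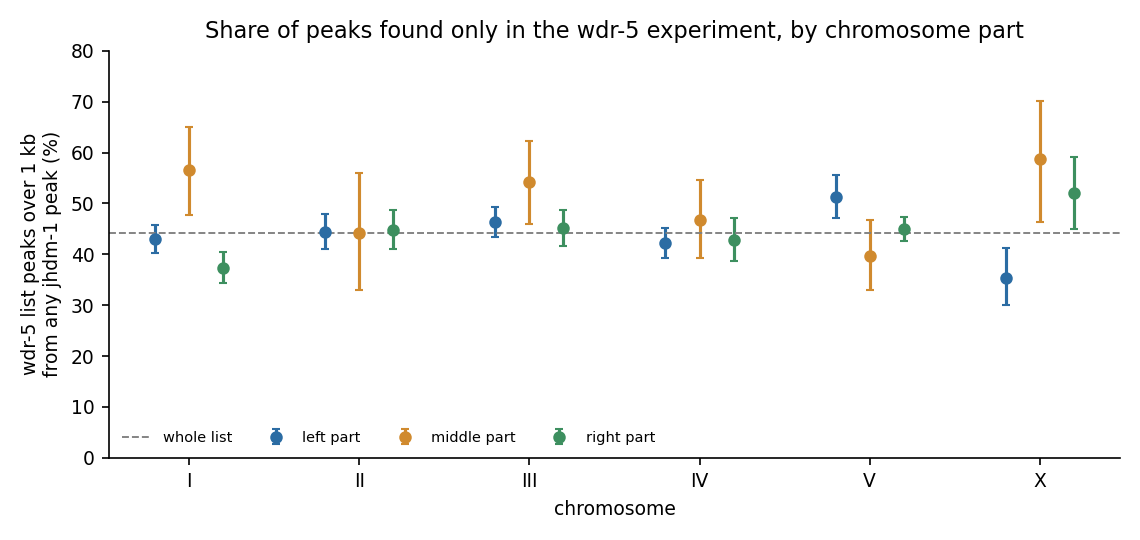
Share of *wdr-5* experiment list peaks that were *wdr-5* experiment-only (%) in the left, middle and right part of each chromosome, with 95% Wilson intervals for counting error. The dashed line is the whole list at 44.2%, and the points run from 35.4% in the left part of X to 58.7% in its middle part.

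*wdr-5* experiment-only peaks lay for the most part in the outer parts, as the other peaks did. The outer parts held 4263 of them (92.2%) and 5452 of the other peaks (93.5%), a difference of -1.31 percentage points (-2.32 to -0.318). Without a run of 35 short peaks on Chromosome III, described further on, it was -0.61 points, with an interval (-1.60 to 0.36) that included 0. This small difference turned with the limit, being 1.86 points the other way when every peak without an overlap was counted. By distance, 91.8% of overlapping peaks and 98.1% of other peaks without an overlap lay in the outer parts, against 98.2% of *wdr-5* experiment-only peaks at 2 to 5 kb, 96.2% at 5 to 10 kb, 87.9% at 10 to 20 kb and 65.1% at 20 to 50 kb. The room for peaks past the limit was uneven as well. Of the 100.2 Mb spanned, 82.7% lay past the limit from a *jhdm-1* experiment peak, with 76.8% in the outer and 94.4% in the middle parts. Per Mb of that territory there were 83.1 *wdr-5* experiment-only peaks in the outer parts and 11.5 in the middle parts. Other peaks numbered 81.6 and 11.4 per Mb of the whole outer and middle parts. That is a different territory, so their densities cannot be set against those of *wdr-5* experiment-only peaks.

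*wdr-5* experiment-only peaks were more widely spaced. The gap to the nearest other peak of the *wdr-5* experiment list, of either class, had a median of 830 bp (775 to 891) for *wdr-5* experiment-only peaks and 462 bp (438 to 490) for other peaks. A neighbour closer than 200 bp was found for 23.7% of *wdr-5* experiment-only and 32.6% of other peaks. No other peak lay within 1 kb of 45.8% of *wdr-5* experiment-only peaks (2119) and 31.5% of other peaks (1839), and none within 10 kb of 11.0% (508) and 5.38% (314). Spacing is tied in part to the rule. The rule keeps *wdr-5* experiment-only peaks away from *jhdm-1* experiment peaks, which many other peaks of the list overlapped. Among other peaks, the median gap was 503 bp for overlapping ones and 388 bp for those within the limit without an overlap. When every peak without an overlap was counted, the medians were 654 bp for those peaks and 503 bp for overlapping ones. The wider spacing was seen on 6 of 6 chromosomes and in 17 of 18 parts. The exception was the middle of III, with medians of 1232 bp for *wdr-5* experiment-only and 1740 bp for other peaks. That exception rested on the run of 35 short peaks there, without which the medians were 12197.5 and 1740 bp.

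The gap was widest where peaks were sparse. In the middle parts the median gap was 9923 bp for *wdr-5* experiment-only peaks and 964.5 bp for other peaks. On X it was 5655 and 670 bp, and 40.5% of *wdr-5* experiment-only peaks there, against 18.8% of other peaks, had no peak within 10 kb.

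In spite of their spacing, *wdr-5* experiment-only peaks followed one another along the chromosomes. Of the adjacent peaks of *wdr-5* experiment-only peaks, 65.3% were *wdr-5* experiment-only, compared with 27.6% of those of other peaks and 44.2% of the list. This too is tied in part to the rule, because adjacent peaks often lie in the same interval between *jhdm-1* experiment peaks. Still, 1 such interval can hold both classes. When peaks within 1000 bp were merged, the share of neighbours was 52.0%, and *wdr-5* experiment-only peaks were 45.2% of the merged list. *wdr-5* experiment-only peaks formed 1609 uninterrupted runs, of which 591 were single peaks and 286, with 2058 peaks (44.5%), held at least 5. The other peaks followed one another as well. They too formed 1609 runs, of which 465 were single peaks and 415, with 3381 peaks (58.0%), held at least 5. Their longest run held 43 peaks, against 35 for *wdr-5* experiment-only peaks.

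Peaks chained at gaps of at most 1 kb formed 6031 groups. Of these, 2728 held *wdr-5* experiment-only peaks alone, 2820 other peaks alone and 483 both. Groups of their own class alone held 79.7% of *wdr-5* experiment-only peaks and 78.3% of other peaks, a difference of 1.31 points whose interval (-0.265 to 2.87) included 0. Among the 2728 groups, 2119 were single peaks and 40 held at least 5, compared with 1839 and 88 of the 2820. *wdr-5* experiment-only peaks thus gathered into smaller groups. In mixed groups, 941 *wdr-5* experiment-only peaks stood beside 1263 other peaks.

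Seen from the *jhdm-1* experiment list, *wdr-5* experiment-only peaks filled a part of the intervals between its peaks. Of the 4544 intervals longer than 2 kb between its peaks or up to a chromosome end, 1898 (41.8%) held at least 1, of which 875 held exactly 1 and 235 held 5 or more. Those 235 held 1689 peaks (36.5% of all). The share of intervals that held any was 13.2% at 2 to 5 kb in length, 43.6% at 5 to 10 kb, 59.6% at 10 to 20 kb, 57.7% at 20 to 50 kb and 71.1% above 50 kb. This rise is tied to the rule, which leaves little room in short intervals and more in long ones. A share per length of room was not calculated. Of 1005 windows of 100 kb, 788 (78.4%) held a *wdr-5* experiment-only peak, and 174 windows with 10 or more held 2717 peaks (58.7%). In 83 windows such peaks were present without any *jhdm-1* experiment peak. Window counts of the other peaks are not given, so no difference from them is shown here.

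The run of most peaks was made of very short ones. On Chromosome III, in the middle part, 35 consecutive *wdr-5* experiment-only peaks lay in III:7406103-7453226, an interval of 47124 bp of which they covered 3814 bp (8.09%). Their median length was 69 bp, with 31 of 35 under 150 bp and 3 at 46 bp, the shortest length in the list. The longest was 829 bp, at the right end of the run, and the next 227 bp. Gaps between them ran from 9 to 12677 bp with a median of 593.5 bp. The next peaks of the list lay 78577 bp to the left and 16563 bp to the right, and the distance to the nearest *jhdm-1* experiment peak ran from 13544 to 60622 bp.

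This run held 31 of the 228 *wdr-5* experiment-only peaks under 150 bp (13.6%). In the whole list, no other window of 50 kb held more than 7 peaks of that length, whereas the densest held 29. Without the run, 92.9% of *wdr-5* experiment-only peaks lay in the outer parts, and their median length was 450 bp. The largest group of *wdr-5* experiment-only peaks alone, on II, also held mostly short peaks. Its 10 peaks in II:3162417-3166397 had a median length of 88.5 bp, 7 of them under 150 bp, and lay 4589 to 8342 bp from a *jhdm-1* experiment peak. Both sets are singled out here by their peak counts, and their short lengths were noticed afterwards.

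**Figure D4:**
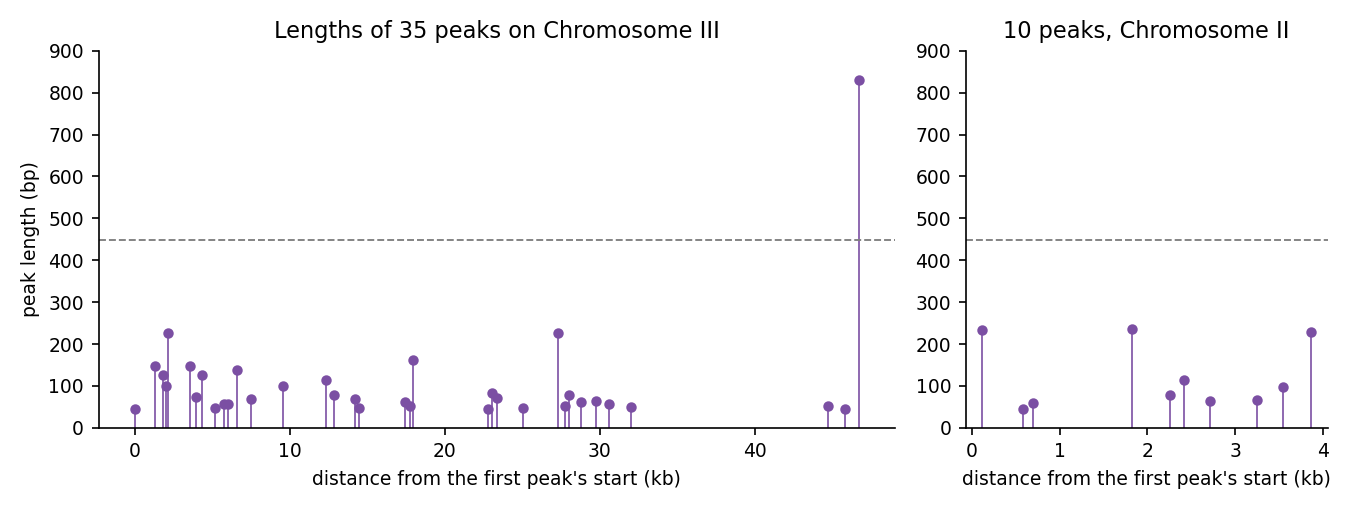
Length (bp) of each *wdr-5* experiment-only peak against its distance (kb) from the start of the first peak, in the run of 35 on Chromosome III (left) and the group of 10 on Chromosome II (right). The dashed line is the median of all *wdr-5* experiment-only peaks, 448 bp, and the peak of 829 bp alone exceeds it.

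The runs next in size were of ordinary peaks. On V, 23 peaks in V:18342737-18381771 had a median length of 491 bp and covered 33.9% of the interval, and 20 peaks in V:18813180-18842571 had a median length of 633 bp and covered 48.0%. The longest run on Chromosome I had 19 peaks. The windows of 100 kb with most *wdr-5* experiment-only peaks held the same runs. V:18300001-18400000 had 38 of 48 peaks in this class and 6 *jhdm-1* experiment peaks, III:7400001-7500000 had 36 of 38 and 4, and V:18800001-18900000 had 33 of 52 and 13. After the group on II, the groups of most peaks were III:7409586-7413642, with 8 peaks inside the run above, and III:1596072-1602822 and V:18351289-18358622, with 7 peaks each and median lengths of 512 and 534 bp.

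The longest *wdr-5* experiment-only peaks were in the outer parts of chromosomes. III:313945-321547 was 7603 bp long and 8370 bp from the nearest *jhdm-1* experiment peak. III:1526262-1533110 followed with 6849 bp at a distance of 2222 bp, V:14838884-14845061 with 6178 bp at 5555 bp, III:2006897-2012951 with 6055 bp at 10540 bp, and a peak in the left part of Chromosome I with 5630 bp at 1135 bp. A broad peak in the *wdr-5* experiment list could thus lie several kb from any in the *jhdm-1* experiment list, although peaks of this length were rare.

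The most distant were single peaks of 71 to 413 bp in the middle parts of X and V. X:8326537-8326607, of 71 bp, was 395450 bp from the nearest *jhdm-1* experiment peak and 178812 bp from the nearest peak of its own list. X:8147396-8147724 (329 bp) was at 322792 bp, V:8152360-8152772 (413 bp) at 228006 bp, X:8034393-8034793 (401 bp) at 209789 bp and V:8057771-8058174 (404 bp) at 179456 bp. Among these 5 the least gap to another peak of the same list was 42349 bp.

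*wdr-5* experiment-only peaks also stood among broad peaks that overlapped *jhdm-1* experiment peaks. The mixed group of most peaks, III:1485397-1580993, which was chosen after its values were seen, held 27 peaks in a nearly continuous domain that they covered to 93.6%. Its 8 *wdr-5* experiment-only peaks had a median length of 362.5 bp and summed to 9959 bp, of which 6849 bp came from a single peak named above. The 19 other peaks had a median length of 1819 bp and summed to 79565 bp, with the longest at 13582 bp.

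Both regions of Chromosome III that the study drew in a genome browser held 1 *wdr-5* experiment-only peak. In the wider view, III:1022087-1022882 (796 bp) was 4321 bp from the nearest *jhdm-1* experiment peak. The other 5 peaks there overlapped one or lay 192 to 919 bp from one, and the longest of them, III:1031425-1037374, had 5950 bp. In the view of *rsks-1*, the gene of the S6 kinase, III:11245980-11246836 (857 bp) was a *wdr-5* experiment-only peak at 2508 bp, and III:11242135-11243219 (1085 bp) overlapped a *jhdm-1* experiment peak. Genes, exons and base sequence under the peaks were not analysed here.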

How the data were processed

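Alignment to WS220/ce10 was done by the authors with Bowtie2, after read filtering, and broad peaks were called with MACS 2.1.1. The deposited lists hold only peak positions (chromosome, start and end), 1 list per experiment over all its groups, with no other unit and no counts, and the inputs were not analysed here. Total reads per library are unknown from them. Lists were used unfiltered with Python 3.11.15, numpy 2.4.6, pandas 2.3.3, scipy 1.17.1 and matplotlib 3.10.9. Distances were checked with bedtools 2.31.1 and on planted lists. Chromosomes, taken to end where their last peak in the 2 lists ends, were divided into 3 equal parts, and peaks placed by midpoint. Intervals are Wilson for shares, Newcombe for differences and binomial order statistics for medians, at 95%. Peaks named are the 5 longest and farthest, those nearest the limit, the 3 largest runs, windows and groups of *wdr-5* experiment-only peaks alone (4 groups, by a tie) and those in the study's browser views. Members, rules and comparisons were chosen with earlier results of these data known. Alternatives were other limits, midpoint distances, a length minimum, merged peaks, autosomes, base pairs, other parts and group gaps. No sequence was read, because the gene table at hand is on WBcel235, another build.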

Additional observations from a re-analysis of the deposited data

How the results depend on the processing

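*wdr-5* experiment-only peaks had the lower median length and the wider median gap under each other limit, by midpoint, from 500 bp of length, merged, on autosomes and without the run of 35. The difference in outer-part share (added, like the fit without the run of 35, after the values were seen) was -1.31 points, but 1.86 when any peak without an overlap counted, 0.25 past 500 bp and 1.01 among peaks of at least 500 bp. It was -0.61 without the run, -0.16 by midpoint, -2.83 with 4 parts, -3.13 when merged, -3.68 past 2000 bp and -10.67 past 5000 bp. The cause was not tested. The share of the list was 59.0% without an overlap, 51.3% past 500 bp, 34.4% past 2000 bp, 19.1% (1996 peaks) past 5000 bp, 49.0% by midpoint, 48.9% (2531 peaks) from 500 bp of length, 45.2% (2728) when peaks within 1000 bp were merged and 35.1% of base pairs. Median lengths of *wdr-5* experiment-only peaks were then 407 bp past 5000 bp, 478 bp by midpoint, 829 bp from 500 bp of length and 520 bp merged. The share shorter than the other peaks' median was 63.7% without an overlap, 64.4% past 5000 bp, 54.4% by midpoint, 63.8% from 500 bp of length, 74.2% merged and 64.6% against overlapping peaks alone. The outer-part share was 93.7% without an overlap, 93.0, 90.5 and 84.3% past 500, 2000 and 5000 bp, 95.4% from 500 bp of length, 89.0% merged, 94.4% of base pairs and 84.5% with 4 parts. On X, the share of peaks was 52.7% without an overlap, 49.0, 38.9 and 32.3% past 500, 2000 and 5000 bp, 37.7% from 500 bp of length, 50.9% merged and 33.1% of base pairs. The share with a nearest gap above the other peaks' median was 61.9%, and 56.1% without an overlap, 60.3, 63.3 and 68.2% past 500, 2000 and 5000 bp, 59.5% by midpoint, 55.4% from 500 bp of length and 57.9% merged. The share of neighbours was 68.1% without an overlap, 66.3, 64.1 and 62.5% past 500, 2000 and 5000 bp, 64.0% from 500 bp of length and 52.0% merged. The share in groups of its own class was 71.0% without an overlap, 75.0, 83.8 and 89.6% past 500, 2000 and 5000 bp, 76.4% by midpoint, 84.0% from 500 bp of length, 89.97% and 34.6% with groups chained at 500 and 5000 bp, and 100% merged, by construction. The other 32 of 98 values stayed within the interval of the main value or, for counts, within 1.5 times it, among them all those for autosomes alone and without the run of 35. The lists pool all replicates, so none could be left out, and no replicate block could be fitted.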
